A study of Mus musculus with 6 samples.

Results

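The RNA of the signal recognition particle (SRP), also called 7SL, and 7SK RNA were followed in mouse visual cortex, dissected on postnatal day 28. The genes are Rn7s1 (ENSMUSG00000099021) and Rn7s2 (ENSMUSG00000099250), which are copies of the 7SL gene, and Rn7sk (ENSMUSG00000065037). They are 3 of the 55487 genes in the deposited count table and were found by their mouse Ensembl identifiers. They were picked because Rn7s1 had high counts in the heterozygous libraries only. The contrasts with the heterozygotes are therefore given as a description, without a test.

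Libraries came from a mouse line on the B6.CBA/Tar strain whose Mmp9 gene is mutated in an untranslated region (allele Mmp9em1Iimcb/Tar). Mmp9 encodes a secreted protease of the extracellular matrix. The groups were homozygotes (UTRmut/UTRmut, here UTRmut), heterozygotes (UTRmut/WT, here het) and wild type (WT/WT, here WT), with 2 libraries each. In every genotype replicate 1 was a female and replicate 2 a male, so each combination of genotype and sex was 1 library. The labels say neither which untranslated region and which bases were changed nor whether the libraries came from separate litters. They name no Cre, promoter, pooling or further treatment. Total RNA was used, so RNAs without a poly(A) tail were in the input. The p-values speak of the spread among these 6 libraries, which may be technical in part. In the genotype comparisons this spread holds any difference between the sexes, since the main fit had no term for sex.

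SRP RNA is the scaffold of a ribonucleoprotein that binds the signal peptide of a nascent secreted or membrane protein and brings the ribosome to the endoplasmic reticulum. 7SK RNA sits in a nuclear particle that holds the kinase P-TEFb inactive through the HEXIM proteins, and its release lets RNA polymerase II leave its pause. Both RNAs are made by RNA polymerase III, are abundant, and have many scattered copies and fragments in mammalian genomes.

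The 300-base models of Rn7s1 and Rn7s2 cannot be told apart by their sequence, and the bases around them were not compared. In GRCm38, Rn7s1 lies on chromosome 12 from 69159295 to 69159594 on the plus strand, and Rn7s2 on the same chromosome from 69361182 to 69361481 on the minus strand. The gap between them is 201.587 kb. Each is a single model of 300 bases of the class misc_RNA (short noncoding RNAs outside the other classes), and the models are identical at 300 of 300 positions. All 201 windows of 100 bases in Rn7s1 occurred in Rn7s2 too, and 0 occurred in Rn7s1 alone. How the authors' counting treated reads that match several places is not given in the sources used here. The split of counts between Rn7s1 and Rn7s2 is therefore uncertain, and their sum is given beside each copy. The first 30 bases are shown with those of the related model Rn7s6, to show that the pair is the same where a relative differs. They are printed 5′ to 3′ from the GENCODE M21 transcripts (GRCm38). Capitals mark the positions, counted from 1 at the 5′ end of Rn7s1, where Rn7s6 differs within this window, G8A and C19T.
Rn7s1, chr12:69159295-69159324, plus strand: gccgggcGcggtggcgcaCgcctgtagtcc
Rn7s2, chr12:69361452-69361481, minus strand: gccgggcGcggtggcgcaCgcctgtagtcc
Rn7s6, chr6:69516339-69516368, plus strand: gccgggcAcggtggcgcaTgcctgtagtcc

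Rn7sk is a model of 331 bases on chromosome 9, from 78175303 to 78175633 on the minus strand. Its first stem carries repeats of GATC (GAUC in the RNA), the motif that HEXIM1 is known to bind, and GATC occurred at positions 13, 42 and 64. Of its 232 windows of 100 bases, 142 also occurred in other annotated transcripts and 90 in Rn7sk alone. One such relative, Gm24447 on chromosome 15, had the same bases from position 1 to 241 and parted from Rn7sk after that. The start of Rn7sk is shown with the GATC in capitals, followed by the same window of Rn7sk and of Gm24447 (bases 227 to 256), where capitals mark the bases past the shared stretch.
Rn7sk, chr9:78175604-78175633, minus strand: ggatgtgagggcGATCtggctgcgacatct
Rn7sk, chr9:78175378-78175407, minus strand: aaacaagctctcaagGTCCATTGTAGGAGA
Gm24447, chr15:93234589-93234618, plus strand: aaacaagctctcaagAATTTCATGAATTCA

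The libraries had 9500090 to 11966579 counts, and 16119 genes passed the filter on low counts and were tested. Neuronal markers of the cortex were present in every library, with Slc17a7 (the glutamate transporter of cortical excitatory neurons) at 875 to 1005 CPM (counts scaled to library size, with TMM factors) and Gad1 (GABA synthesis) at 293 to 348 CPM. Mmp9 had 4 to 16 counts per library. The WT libraries stood apart from each other. Xist, the RNA of the inactive X chromosome, had 6164 to 7056 counts in the females, and 5, 15 and 268 counts in the UTRmut, het and WT males. The Y-linked gene Uty had 530, 561 and 497 counts in the same males. The summed level of 3 choroid plexus markers was 2.05 to 9.49 CPM in 5 libraries and 47.2 CPM in the WT male, and that of 3 meningeal markers was 17.4 to 29.7 CPM in 5 libraries and 44.8 CPM in the WT male. The part of these differences in the results on WT was not tested, and values without each WT library are given where they change a result.

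Rn7s1 was high in both het libraries and low in the others. It had 64 and 72 counts in the UTRmut female and male, 880 and 1637 in the het female and male, and 57 and 56 in the WT female and male. As CPM these were 5.98 and 6.27 in UTRmut, 91.6 and 153 in het, and 5.50 and 4.84 in WT. Both het libraries lay above every other library, and the UTRmut and WT libraries stayed within 1.30-fold of each other. The lower het library was 14.6-fold above the highest of the other libraries, and the het male was 1.67-fold above the het female.

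The group means of Rn7s1 were 6.12 ± 0.204 CPM in UTRmut, 122 ± 43.4 CPM in het and 5.17 ± 0.467 CPM in WT (SD, n = 2 each). Relative to WT, het had a log2 fold of 4.57 (SE 0.29). Relative to het, UTRmut had -4.32 (SE 0.28). These values chose the gene and carry no test. Over all genes tested, 27.1% had het and WT libraries that did not overlap, 34.3% had UTRmut and het libraries that did not overlap, and 5.74% had both het libraries above the other libraries. For UTRmut against WT, the log2 fold was 0.25 (SE 0.36), which is also given without a test because the gene was chosen on all 3 genotypes. The number of mutant alleles and the level of Rn7s1 had no common order, since carriers of 2 and of 0 mutant alleles had the low values.

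Rn7s2 did not share this pattern. It had 347 and 348 counts in the UTRmut female and male, 325 and 394 in the het female and male, and 554 and 296 in the WT female and male. As CPM these were 32.4 and 30.3 in UTRmut, 33.8 and 36.8 in het, and 53.4 and 25.6 in WT. The WT libraries were the highest and the lowest of the 6, so both other genotypes overlapped WT. The share of counts in TEC models (transcribed regions still to be experimentally checked) was 0.452% to 0.680% in 5 libraries and 0.751% in the WT female, and the part of this in Rn7s2 was not tested.

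Rn7s2 averaged 31.3 ± 1.5 CPM in UTRmut, 35.3 ± 2.10 CPM in het and 39.5 ± 19.7 CPM in WT (SD, n = 2 each). The log2 fold for UTRmut against WT was -0.33 (SE 0.35) and did not pass (adjusted p = 0.999, edgeR with Benjamini-Hochberg). It turned on the WT library used. Without the WT male it was -0.76 and without the WT female it was 0.29, each with a lone WT library. The log2 fold for het against WT, given as a description, was -0.15 (SE 0.35), and for UTRmut against het -0.17 (SE 0.35). Without the WT female, the highest library was 1.44-fold above the lowest, against 2.09-fold over the 6 libraries.

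**Figure D1:**
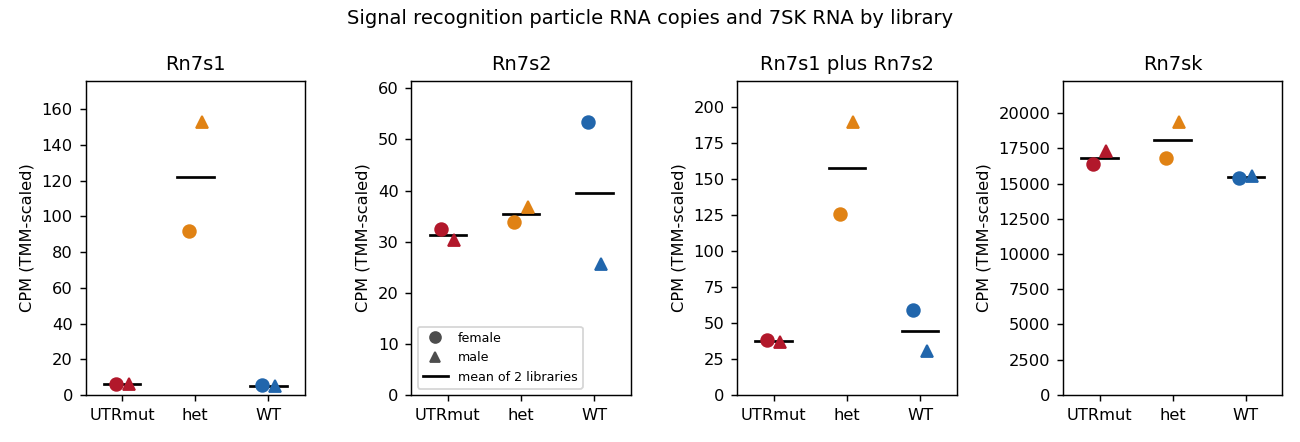
CPM of Rn7s1, Rn7s2, their sum and Rn7sk in the 6 libraries, by genotype, with females as circles, males as triangles and the mean of 2 libraries as a line. Rn7s1 was at 91.6 and 153 CPM in het and at 4.84 to 6.27 CPM in the other libraries, while Rn7s2 was spread most between the WT libraries.

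The mean of het minus the mean of WT was 117 CPM for Rn7s1 and -4.18 CPM for Rn7s2, which left 113 CPM for the sum. Rn7s2 averaged 39.5 ± 19.7 CPM in WT, so a loss as large as the gain of Rn7s1 was not possible. The sum of Rn7s1 and Rn7s2 had 411 and 420 counts in the UTRmut female and male, 1205 and 2031 in the het female and male, and 611 and 352 in the WT female and male. As CPM it was 38.4 and 36.6 in UTRmut, 125 and 190 in het, and 58.9 and 30.4 in WT. Both het libraries were above all others in the sum too, the lower by 2.13-fold, and the UTRmut libraries lay between the WT libraries.

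The sum averaged 37.5 ± 1.30 CPM in UTRmut, 158 ± 45.5 CPM in het and 44.7 ± 20.2 CPM in WT (SD, n = 2 each). Its log2 fold was 1.83 (SE 0.41) for het against WT, -2.07 (SE 0.41) for UTRmut against het and -0.25 (SE 0.42) for UTRmut against WT, all given as a description. The fold of the sum for het against WT was 3.55, smaller than the 23.7 of Rn7s1, because most counts of the other genotypes went to Rn7s2. In bulk tissue, a change in the number of cells of a type and a change in the RNA per cell cannot be told apart.

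The share of the pair's counts that went to Rn7s1 separated the het libraries from the others. It was 15.6% (95% Wilson interval 12.4 to 19.4) and 17.1% (13.8 to 21.0) in the UTRmut female and male. In the het female and male it was 73.0% (70.5 to 75.5) and 80.6% (78.8 to 82.3). In the WT female and male it was 9.33% (7.27 to 11.9) and 15.9% (12.5 to 20.1). The 4 other libraries had most counts at Rn7s2. Since Rn7s1 was picked for its high counts in het, these shares are a description and carry no test. The Wilson intervals cover counting error only, since the reads carry no molecular identifiers and can repeat a molecule.

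**Figure D2:**
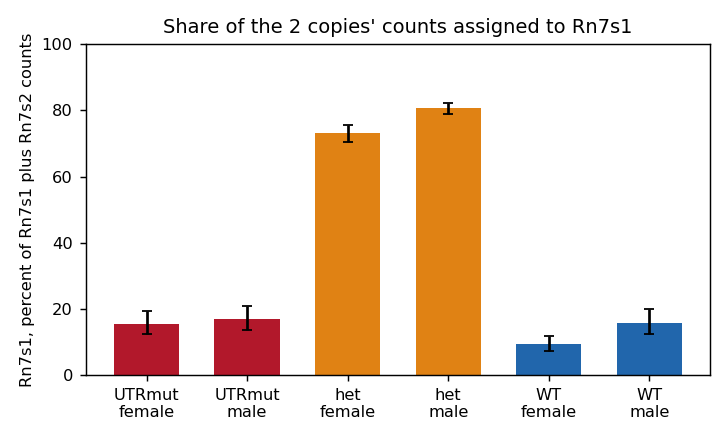
Share of the counts of Rn7s1 plus Rn7s2 that were assigned to Rn7s1, in percent, for each library, with 95% Wilson intervals as error bars. The het libraries were at 73.0% and 80.6%, and the UTRmut and WT libraries at 9.33% to 17.1%.

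Other models with the sequence of 7SL did not follow Rn7s1. Among 562 misc_RNA models, 12 besides the pair aligned to Rn7s1 over at least 50% of their own length, and 4 of these had any counts. The highest was Gm26461, whose longest exact match to Rn7s1 is bases 1 to 104. It had 44 and 39 counts in UTRmut, 28 and 56 in het, and 60 and 46 in WT. Rn7s6, whose longest exact match to Rn7s1 is bases 42 to 214, had 1 to 8 counts per library. The 12 models together had 4.49 and 3.76 CPM without TMM factors in UTRmut, 3.58 and 5.38 in het, and 7.16 and 4.56 in WT. Here the WT female was highest, and the het libraries overlapped the others. The annotation also holds the miRNA models Gm47287 and Gm47295 on the strand of Rn7s1, and Gm47299 and Gm47305 on that of Rn7s2. Each pair covers 147 of the 300 bases, and all 4 models had 0 counts in every library.

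No protein partner of SRP RNA passed the test in either mutant genotype. All 8 SRP protein genes were tested, and 0 rose and 0 fell in het against WT or in UTRmut against WT (edgeR with Benjamini-Hochberg, threshold 0.05), with 0 at an unadjusted p under 0.05 and 0 by DESeq2. Over all genes tested, 0.0124% passed in het against WT and 0.0062% in UTRmut against WT. A count of 0 is therefore usual for any list or set of neighbours as short as those here and below. The median log2 fold of the 8 genes was -0.01 for het against WT (range -0.15 to 0.14) and 0.04 for UTRmut against WT (range -0.07 to 0.35), against medians of 0.00 and -0.01 over all genes. Srp19, which helps the particle assemble, had 20.5 and 20.9 CPM in het and 22.3 and 23.6 CPM in WT (log2 fold -0.15, SE 0.13). Srp9, which with Srp14 holds the Alu domain that slows translation, had 19.4 and 19.99 CPM in het and 18.2 and 18.4 CPM in WT (log2 fold 0.10, SE 0.14). For UTRmut against WT the smallest p was that of Srp54a, of the subunit that binds the signal peptide, with 3.36 and 3.48 CPM in UTRmut and 2.70 and 2.68 CPM in WT (log2 fold 0.35, SE 0.30). Srp68, a large scaffold subunit, followed at 0.11 (SE 0.11), and neither passed.

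The receptor and translocon genes, which take the ribosome from SRP and move the chain into the endoplasmic reticulum, gave the same count. Of 20 names in the list 19 were in the table and tested, and 0 passed in any comparison of genotypes (edgeR, with 0 at an unadjusted p under 0.05 and 0 by DESeq2). Of all genes tested, 0.0062% to 0.0124% passed in these comparisons. The median log2 fold of the 19 was 0.05 for het against WT and 0.06 for UTRmut against WT. Ssr4, a subunit of the translocon-associated complex, had 21.1 and 23.8 CPM in UTRmut, 20.3 and 24.9 CPM in het, and 19.5 and 18.5 CPM in WT. Its log2 fold for het against WT was 0.26 (SE 0.15). Srprb, the membrane subunit of the SRP receptor, had 29.9 and 25.6 CPM in het and 24.5 and 23.5 CPM in WT (log2 fold 0.21, SE 0.13). Spcs2, of the signal peptidase, had a log2 fold of 0.23 (SE 0.11) for UTRmut against WT. Each of the 3 had a higher mean than WT, none passing.

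Chaperones and stress genes of the endoplasmic reticulum, where SRP delivers its cargo, were tested as 15 genes. In het against WT, 11 had a positive log2 fold and 0 passed (edgeR, with 1 at an unadjusted p under 0.05 and 0 by DESeq2), and the median was 0.10. In UTRmut against WT, which shares the WT libraries, 11 were positive, the median was 0.04, and 0 passed (edgeR, 0 at an unadjusted p under 0.05, 0 by DESeq2). The shares over all genes tested were 0.0124% in het against WT and 0.0062% in UTRmut against WT. Pdia4, a disulfide isomerase, had 60.7 and 66.1 CPM in het and 39.2 and 56.8 CPM in WT (log2 fold 0.40, SE 0.17). Ddit3, which encodes the stress factor CHOP, had 9.06 and 11.9 CPM in het and 7.43 and 8.20 CPM in WT (log2 fold 0.42, SE 0.20). The WT female was the lowest library for both. Without the WT male, the log2 fold for het against WT was 0.70 for Pdia4 and 0.57 for Hspa5, the chaperone BiP. Hspa5 was picked from the 89 genes of the 5 pathway lists after its values were seen.

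Rn7sk had far more counts than the 7SL pair and varied little. It had 175139 and 198561 counts in the UTRmut female and male, 161236 and 207348 in the het female and male, and 159875 and 179844 in the WT female and male. This was 1.60% and 1.66% of all counts in UTRmut, 1.70% and 1.96% in het, and 1.59% and 1.55% in WT. In every library it had rank 2 among all genes by count, behind mt-Rnr2, the large mitochondrial ribosomal RNA. Rn7sk held 98.6% to 99.3% of the counts of the class misc_RNA. On the scale of CPM per kilobase of the model, its level had a median of 50061 over the libraries, against 162 for the sum of the 7SL pair. The ratio of these per-length levels was 92.5 to 463. It compares counts and may not hold for the RNAs themselves. Reads that match both 7SL copies may have been left uncounted, since their treatment is not given.

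As CPM, Rn7sk was at 16356 and 17280 in the UTRmut female and male, 16784 and 19369 in the het female and male, and 15418 and 15532 in the WT female and male. The WT libraries were the lowest, below both UTRmut and both het libraries, and the UTRmut and het libraries overlapped. The het male was the highest library. Rn7sk averaged 16818 ± 653 CPM in UTRmut, 18076.5 ± 1828 CPM in het and 15475 ± 80.3 CPM in WT (SD, n = 2 each).

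The log2 fold of Rn7sk for UTRmut against WT was 0.12 (SE 0.07) and did not pass (adjusted p = 0.999, edgeR with Benjamini-Hochberg). UTRmut and WT libraries did not overlap for 28.6% of all genes tested, so this order is common in the table. The mitochondrial ribosomal RNAs, part of the same totals, took 6.31% and 8.69% of counts in UTRmut and 4.95% to 5.78% in the other libraries, and their part in the level of Rn7sk was not tested. For het against WT the log2 fold was 0.22 (SE 0.07), and for UTRmut against het -0.10 (SE 0.07), both as a description. Without the het male, the log2 fold for het against WT was 0.12. The order of the means was het, UTRmut and WT. The neighbours in this order were het and UTRmut, whose libraries overlapped, and UTRmut and WT, whose difference did not pass.

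The fragments and relatives of 7SK were a small share of its counts. There were 197 related misc_RNA models, of which 38 had counts, and together they had 54.8 and 60.2 CPM without TMM factors in UTRmut, 61.7 and 67.8 in het, and 96.7 and 58.8 in WT. The WT female was the highest library, as for Rn7s2, and the WT male was within the range of the UTRmut libraries. Gm24447, with the long shared stretch, had 499 and 603 counts in UTRmut, 470 and 598 in het, and 811 and 563 in WT. Its WT female value was the highest, while that of Rn7sk was the lowest on the CPM scale. Reads from the shared bases could have been counted for either model.

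The proteins of the 7SK particle and of P-TEFb were tested as 14 genes, and 0 rose and 0 fell in any comparison of genotypes (edgeR, with 0 at an unadjusted p under 0.05 and 0 by DESeq2). Over all genes tested, 0.0062% to 0.0124% passed in these comparisons. The 14 genes had a median log2 fold of 0.01 for UTRmut against WT and -0.01 for het against WT. Hexim1, the inhibitor that 7SK brings to P-TEFb, had 55.7 and 67.4 CPM in UTRmut, 69.6 and 65.3 CPM in het, and 58.0 and 59.9 CPM in WT. Both het libraries were above WT, and the UTRmut libraries lay on either side of it. The log2 folds against WT were 0.06 (SE 0.11) in UTRmut and 0.19 (SE 0.11) in het. Mepce, which caps the 5′ end of 7SK, had a log2 fold of 0.15 (SE 0.13) for het against WT. Cdk9, the kinase subunit, had a log2 fold of -0.07 (SE 0.11) for UTRmut against WT.

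RNA polymerase III and its factors, which make both RNAs, were tested as 33 genes, and 0 passed in any comparison of genotypes (edgeR, with 0 at an unadjusted p under 0.05 and 0 by DESeq2). The share of all genes tested that passed in these comparisons was 0.0062% to 0.0124%. The 33 genes had a median log2 fold of 0.02 for UTRmut against WT and -0.01 for het against WT. The ranges were -0.45 to 0.18 and -0.22 to 0.19. Polr3g, the alternative subunit best known from stem cells, had 4.95 and 4.35 CPM in UTRmut and 5.79 and 6.91 CPM in WT (log2 fold -0.45, SE 0.24). Snapc3 and Snapc4 encode subunits of the complex that binds the upstream promoter of 7SK and snRNA genes. Their log2 folds for het against WT were 0.19 (SE 0.12) and -0.19 (SE 0.13).

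**Figure D3:**
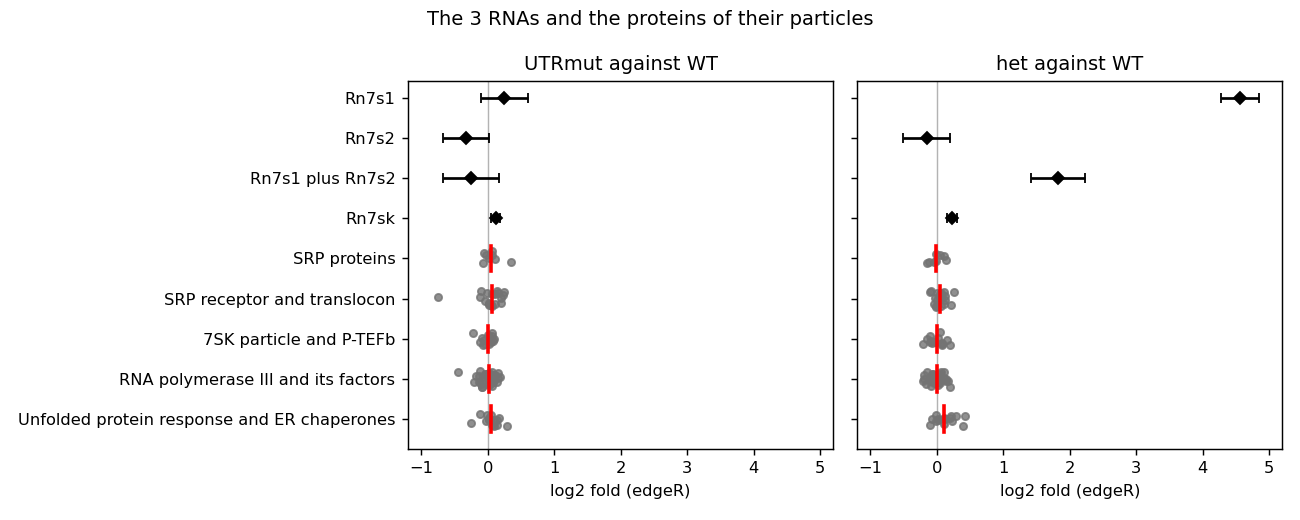
Log2 folds from edgeR for UTRmut against WT (left) and het against WT (right), with the 3 RNAs and the 7SL sum as diamonds with their SE, each tested gene of 5 lists as a grey point and the median of each list as a red line. List medians lay between -0.01 and 0.10, while Rn7s1 and the 7SL sum stood at 4.57 and 1.83 in het against WT.

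Other structural noncoding RNAs are set beside the members because they depend on the same input of total RNA. Of 28 names, 10 passed the filter on low counts and 18 did not. Rmrp and Terc, the RNAs of the enzymes RNase MRP and telomerase, were at 0 counts in every library. Of the 10, 0 passed in UTRmut against WT or in het against WT (edgeR, with 0 at an unadjusted p under 0.05 and 0 by DESeq2), and the medians were -0.05 and 0.08. In the same comparisons 0.0062% and 0.0124% of all genes tested passed. Bc1, a neuronal cytoplasmic RNA also made by RNA polymerase III, had 541 and 1586 CPM in UTRmut, 613 and 586 CPM in het, and 618 and 454 CPM in WT. Only the UTRmut male was high, and the log2 fold for UTRmut against WT was 0.99 (SE 0.64). Without the UTRmut female the log2 fold was 1.57.

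Of the ribosomal RNAs and models that collect their reads, 3 of 8 names were in the table and tested, and 0 passed in UTRmut against WT with edgeR (2 at an unadjusted p under 0.05), while DESeq2 called mt-Rnr1. This small mitochondrial ribosomal RNA had 6532 and 8547 CPM in UTRmut, 4456 and 4300 CPM in het, and 3819 and 4383 CPM in WT (log2 fold 0.88 for UTRmut against WT, SE 0.12, adjusted p = 0.388 in edgeR with Benjamini-Hochberg). It passed in edgeR with the replicate block (log2 fold 0.87) and with no filter on low counts (0.89). In this comparison DESeq2 called 8 genes, the replicate block 4 and no filter 27. Without the UTRmut female, the UTRmut male or the WT male, the log2 fold of mt-Rnr1 was 1.06, 0.67 or 0.99. With no filter mt-Rnr2 passed too (0.60), and without the UTRmut female its log2 fold was 0.83. Of 7 nuclear long noncoding RNAs, 0 passed in either comparison with WT (edgeR, with 0 at an unadjusted p under 0.05 and 0 by DESeq2). Their median log2 fold was -0.30 for UTRmut against WT and 0.01 for het against WT. Kcnq1ot1, an imprinted antisense RNA, had the smallest p in UTRmut against WT, with 276 and 266 CPM in UTRmut and 407 and 290 CPM in WT (log2 fold -0.36, SE 0.18). Without the WT male, Kcnq1ot1, Meg3, Snhg11 and Miat had log2 folds of -0.57 to -0.72 for UTRmut against WT. Neat1 had a log2 fold of 0.92 for het against WT without that library. Both comparisons then rest on a lone WT library.

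Genes around the 7SL pair did not share the rise of Rn7s1 in het. Within 250 kb of Rn7s1 or Rn7s2 there were 33 other genes, of which 9 were tested. Their log2 folds for het against WT ran from -0.05 to 0.20 with a median of 0.04, and 0 passed (edgeR, with 0 at an unadjusted p under 0.05 and 0 by DESeq2). Rps29, a ribosomal protein gene, ends 108 bases from Rn7s1, with 0.03 (SE 0.10) in het against WT. In UTRmut against WT, Rps29 had the smallest p of the 9 (log2 fold 0.23, SE 0.10), the 1 at an unadjusted p under 0.05, and 0 passed. Nemf, a factor of ribosome quality control, lies 4.017 kb from Rn7s2, with a log2 fold of 0.09 (SE 0.11) for het against WT. Klhdc1, between the copies, had 0.11 (SE 0.15). Within 250 kb of Rn7sk there were 26 genes and 5 were tested, with log2 folds of -0.11 to 0.09 for het against WT. Ick, a kinase gene 3.20 kb away, had -0.06 (SE 0.12), and Gsta4, a glutathione transferase gene 7.14 kb away, had -0.08 (SE 0.13).

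**Figure D4:**
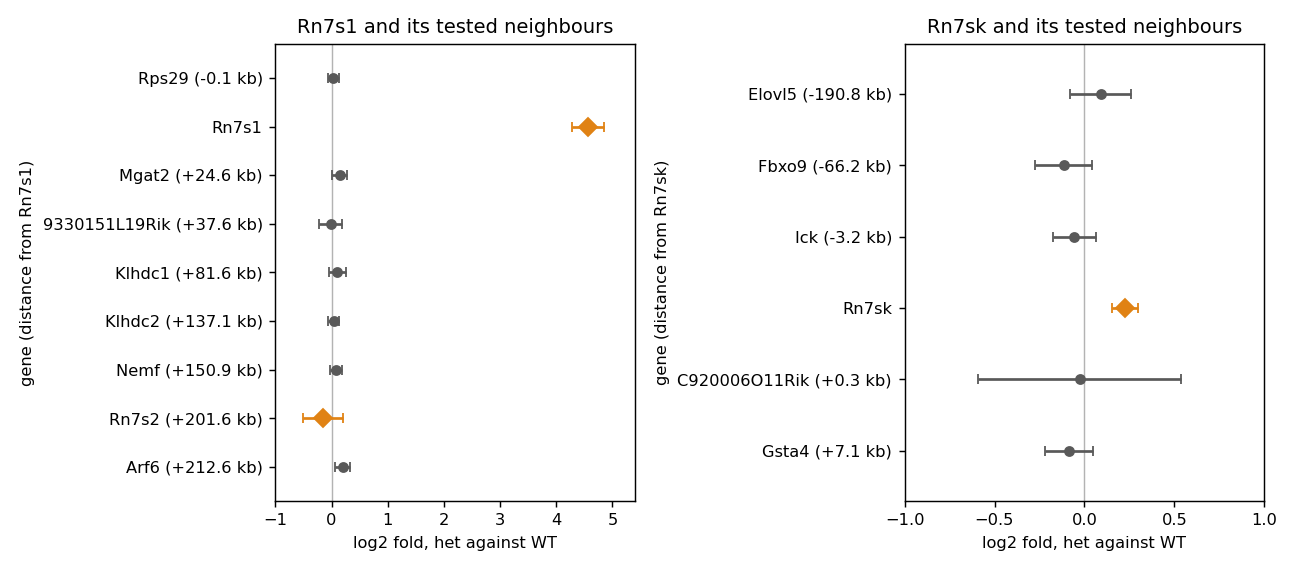
Log2 fold for het against WT (x axis, edgeR, error bars are SE) of Rn7s1, Rn7s2 and Rn7sk (diamonds) and of the tested genes within 250 kb of Rn7s1 (left) and Rn7sk (right), in order of distance. Neighbours lay between -0.11 and 0.20, with Rn7s1 at 4.57.

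The genes whose pattern over the 6 libraries was most like that of each member were found by the root-mean-square difference of centred log2 CPM. For Rn7s1 the nearest was Gm37176 at 1.27, which is a distant match, since the own spread of Rn7s1 on this scale was 2.07. Gm37176 had 1.59 and 1.65 CPM in UTRmut, 8.74 and 8.31 CPM in het, and 3.76 and 2.25 CPM in WT. It was high in het too, by less, and low in UTRmut. Gm37266 and 6530411M01Rik came next, at 1.38 and 1.46. For Rn7s2 the nearest were 4833418N02Rik (0.0538), Gm2011 (0.0741) and Gm38029 (0.0799), against an own spread of 0.325. Each had its highest value in the WT female and its lowest in the WT male. For Rn7sk they were Chsy1 (0.0200), which makes chondroitin chains, Mageh1 (0.0224) and Tars (0.0279), a tRNA synthetase gene, against an own spread of 0.111.

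Females and males were compared with genotype in the model, a contrast that did not enter the choice of the genes. Of the 3 RNAs, 0 passed (edgeR, with 1 at an unadjusted p under 0.05 and 0 by DESeq2), where 0.0372% of all genes tested did. By direction, 0.031% of all genes tested passed as lower in females and 0.0062% as higher. Xist, with 6164 to 7056 counts in females and 5 to 268 in males, did not pass in edgeR either, though DESeq2 called it. A gene that does not pass here can therefore still differ between the sexes. Rn7s1 had 5.98, 91.6 and 5.50 CPM in the UTRmut, het and WT females, and 6.27, 153 and 4.84 CPM in the males of the same genotypes. The female was the lower of the pair in UTRmut and het and the higher in WT. The log2 fold for females against males was -0.42 (SE 0.17; adjusted p = 0.686, edgeR with Benjamini-Hochberg). Without the WT female or the WT male it was -0.61 or -0.62, and without either het library it was 0.05. A lone library is fitted by its own genotype term, so both values without a WT library rest on the UTRmut and het libraries.

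Rn7s2 had 32.4, 33.8 and 53.4 CPM in the UTRmut, het and WT females, and 30.3, 36.8 and 25.6 CPM in the males. Its log2 fold for females against males was 0.35 (SE 0.26; adjusted p = 0.849, edgeR with Benjamini-Hochberg), and without either WT library it was -0.01 or -0.02. For the sum of the pair it was 0.09 (SE 0.38; adjusted p = 0.971, edgeR with Benjamini-Hochberg). Without the WT female or the WT male the sum had -0.33 and passed (adjusted p of 0.0310 and 0.0272, edgeR with Benjamini-Hochberg). Rn7sk was lower in the female of each genotype, with 16356, 16784 and 15418 CPM in the UTRmut, het and WT females, and 17280, 19369 and 15532 CPM in the males. Its log2 fold was -0.10 (SE 0.05; adjusted p = 0.760, edgeR with Benjamini-Hochberg). Among the 89 genes of the 5 pathway lists, 0 passed between the sexes (edgeR, with 2 at an unadjusted p under 0.05 and 0 by DESeq2). All 15 chaperone and stress genes of the endoplasmic reticulum had a negative log2 fold for females against males, with a median of -0.09 against 0.00 over all genes, and 0 passed (edgeR, with 0 at an unadjusted p under 0.05 and 0 by DESeq2).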

How the data were processed

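The deposited table holds raw counts of reads per Ensembl gene, made by the authors for each of 6 libraries and not normalised or pooled. The submitters' processing notes list HTSeq 0.6.0, HISAT2, Trimmomatic 0.39 and GATK 4.2.3.0, and GRCm38 as build, without their roles. Not given in the sources used here are the strand setting, the annotation release and the treatment of reads with several matches, and the last bears on near-identical copies most. Symbols for 55227 identifiers came from GENCODE M21 (260 had none), and where identifiers shared a symbol it went to the one of highest total count. Genes were kept with filterByExpr (minimum count 10, minimum total 15), scaled by TMM and tested in R 4.3.3 with the robust quasi-likelihood F test of edgeR 4.0.16. The Benjamini-Hochberg adjustment ran over all 16119 genes, with a threshold of 0.05. Genotype was a factor over all 6 libraries (3 residual degrees of freedom), and the fit for sex had genotype as a term (2). For the sum, Rn7s1 and Rn7s2 were replaced by 1 summed gene. SE is the absolute log2 fold over the square root of F. CPM are TMM-scaled and errors are SD. Replicates differed by more than counting noise, with a chi-square per degree of freedom of 8.78 in UTRmut, 4.63 in het and 8.57 in WT. Replicate numbers follow sex, and same-numbered libraries were not shown to be paired.

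DESeq2 1.42.0, no filter, other scaling, a replicate block, the compared genotypes alone and leaving out each library were tried as alternatives. Windows were looked up in the GENCODE M21 transcripts, and related models were found with blastn over at least 50% of a model. The members, lists and rules were chosen with earlier results of these data known. The rule names the members in each comparison, up to 4 genes of a list by smallest p, genes within 250 kb, and the 3 genes nearest in pattern. Some genes or values are given only because an alternative called the gene (Hspa5, and long noncoding RNAs without the WT male). They were chosen after the values were seen.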

Additional observations from a re-analysis of the deposited data

Results flagged for a closer look

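In 2 pairs of values for Rn7s2 and 1 for the sum of the 7SL pair, the sexes went opposite ways under the same contrast, with 1 library for each combination of genotype and sex, and the difference between the sexes was not tested. For Rn7s2, the log2 ratio of CPM for UTRmut against WT was -0.72 in females and 0.24 in males, and for het against WT it was -0.66 in females and 0.53 in males. For the sum of Rn7s1 and Rn7s2, the log2 ratio for UTRmut against WT was -0.62 in females and 0.27 in males. The WT libraries are shared by these contrasts. The other contrasts had 1 sign in both sexes. For Rn7s1 in het against WT the log2 ratio was 4.06 in females and 4.98 in males, and for Rn7sk it was 0.12 in females and 0.32 in males.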

How the results depend on the processing

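The number of genes called for UTRmut against WT was 1, and 8 with DESeq2, 27 with no filter on low counts, 4 with the replicate block, 3 with only these genotypes, and 2 to 124 with a library left out (124 without the WT male). For het against WT it was 2, and 13 with no filter, 1 with only these genotypes and 1 to 41 with a library left out (41 without the WT male). For UTRmut against het it was 2, and 7 with DESeq2, 28 with no filter, 5 with the replicate block, 10 with only these genotypes and 0 to 12 with a library left out. For females against males it was 6, and 10 with DESeq2, 92 with no filter and 7 to 198 with a library left out (198 and 182 without the WT female and male). With genotype in the model, both fits without a WT library compare the sexes within UTRmut and het only. The cause of these changes in number was not tested.

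With a library left out, the log2 folds for UTRmut against WT ran from -0.76 to 0.29 for Rn7s2 and from 0.08 to 0.16 for Rn7sk. For het against WT they ran from 4.15 to 4.89 for Rn7s1, 1.43 to 2.37 for the sum and 0.12 to 0.33 for Rn7sk. For UTRmut against het they ran from -4.64 to -3.90 for Rn7s1 and -2.34 to -1.74 for the sum. For females against males they ran from -0.62 to 0.0494 for Rn7s1, -0.0157 to 0.58 for Rn7s2, -0.33 to 0.51 for the sum and -0.15 to -0.05 for Rn7sk. The sum also turned to -0.20 with no genotype term. In the genotype contrasts, a lone library left in a genotype was assumed to vary like the others. Between the sexes such a library added nothing to the contrast, since its genotype term fits it. Calls among the 5 pathway lists, an alternative count added after seeing the data, were 0 to 2 for het against WT and 0 to 1 for females against males.

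Over the alternatives other than leaving out a library, the adjusted p (edgeR or DESeq2, Benjamini-Hochberg) for UTRmut against WT was at least 0.975 for Rn7s2 and for Rn7sk. The correlation of female minus male over 15567 genes was 0.06 between UTRmut and het, -0.03 between UTRmut and WT, and 0.22 between het and WT, so replicate numbers were not shown to pair the libraries. With the replicate block, Rn7s2 had -0.29 and Rn7sk 0.12 for UTRmut against WT, neither passing. Of the 12 models related to 7SL, 4 had any counts, and the part of depth in this was not tested. The split of reads that lie inside the identical models is uncertain at any depth.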
